A study of Mus musculus with 8 samples.

Results

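Semaphorins, plexins, Eph receptors and ephrins form the guidance families examined here, chosen as the protein-coding mouse genes whose symbols begin with Sema, Plxn, Epha, Ephb, Efna or Efnb. The rule took 51 of 21631 protein-coding genes, namely 20 semaphorins, 9 plexins, 14 Eph receptors and 8 ephrins. A peak was counted for a gene when its summit lay inside the gene or within 10 kb of it. Peaks of all libraries were merged into union regions wherever they shared at least 1 bp, and 407 of 138385 union regions belonged to these genes. The genes were chosen by the measured peak numbers and peak percentiles in these same libraries, so the values below are a description and carry no test.

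ATAC-seq, which marks open chromatin through adapters inserted by a transposase, was applied to leukemic granulocyte-macrophage progenitors (L-GMPs) from the bone marrow of mice with acute myeloid leukemia driven by the MLL-AF9 fusion. The sort took CD34+ and CD16/32+ cells that were also c-Kit+, Sca-1- and Lin-. DEK is a nuclear protein that binds chromatin. Libraries 4S-A 1 and 4S-A 2 carried DEK with serines replaced by alanine (Ser306A, Ser308A, Ser311A and Ser312A), KO 1 and KO 2 were Dek fl/fl;Mx1-Cre, and KO 3 was Dek fl/fl;Tie2-Cre. The controls were Dek fl/fl in FL 1 and FL 2, and Dek+/+ in FL 3. These genotypes follow the sample labels. The design text of the series names the Tie2-Cre knockout, although KO 1 and KO 2 are labelled Mx1-Cre. Peak names in the KO 1 and KO 2 lists carry other replicate numbers than the labels, and those in the FL lists read WT. KO 1, KO 2, FL 1 and FL 2 are called the Mx1-Cre set below, and 4S-A 1, 4S-A 2, KO 3 and FL 3 the Tie2-Cre set. Each set is named after the Cre of its knockout. Of the genotypes given here only those of KO 1, KO 2 and KO 3 name a Cre. All 8 libraries carried the MLL-AF9 leukemia. Mx1-Cre is induced by interferon, and Tie2-Cre is active in endothelium and in blood cells that arise from it, so Cre was not restricted to L-GMPs. Whether replicates are separate animals, the age of the mice and the deleted part of Dek are not given by the labels, so differences between libraries of a group may be technical.

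Semaphorins are secreted or membrane-bound ligands that act through plexins, receptors whose cytoplasmic part inactivates small GTPases of the Ras family. Most class 3 semaphorins also need neuropilins to bind. Eph receptors are receptor tyrosine kinases whose ligands, the ephrins, are tethered to the membrane of a neighbouring cell by a lipid anchor (ephrin-A) or a transmembrane part (ephrin-B), so that both cells can receive a signal. The families steer axons and blood vessels, and in blood several members act between immune cells, such as SEMA4D on lymphocytes and SEMA7A, a ligand of plexin C1.

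The authors' lists held 104605 and 94725 peaks in 4S-A 1 and 4S-A 2, 56245, 74026 and 93041 in the KO libraries in replicate order, and 51510, 54887 and 91586 in the FL libraries. Read depth is unknown, and list length went with the set more than with the genotype. Every percentile below is the rank of the −log10 q that the authors deposited for a peak, inside its own library's list. Because lists differ in length, a gap in percentile between libraries shows no change in accessibility. Most counts of called guidance regions and of guidance genes that differ between groups are therefore also given in equal-length lists. These keep the 51510 strongest peaks of each library. Counts for partner and marker lists, and for regions in 4S-A alone or missing only from 4S-A, are from the deposited lists. Region counts per gene are from the deposited lists unless equal-length lists are named. Values of a group are listed in the order of its replicate numbers unless libraries are named. Intervals are exact Clopper-Pearson 95% intervals and cover counting error only. Markers of the sorted cell type held regions in every library: Kit held 9 and 11 regions in 4S-A, 3, 4 and 9 in KO, and 3, 3 and 8 in FL, and the myeloperoxidase gene Mpo held 5 to 7. Hbb-bs, Col3a1, Emcn, Syt1 and Ncr1, defining genes of red cells, stroma, endothelium, neurons and NK cells, held no region in any library, while other genes of the same marker lists did. Among those, Klf1 held 3 to 6 regions across the libraries, Pdgfrb 6 to 13, Pecam1 5 to 14, Mbp 10 to 23 and Tcf7 1 to 7.

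The 4 promoters below are shown because their genes differ in how often the start held a peak. Each is the 250 bases before the gene start, from RefSeq (GRCm38.p6), read in the direction of the gene.
Epha7, chr4:28812881-28813130, plus strand, start region in 8 libraries: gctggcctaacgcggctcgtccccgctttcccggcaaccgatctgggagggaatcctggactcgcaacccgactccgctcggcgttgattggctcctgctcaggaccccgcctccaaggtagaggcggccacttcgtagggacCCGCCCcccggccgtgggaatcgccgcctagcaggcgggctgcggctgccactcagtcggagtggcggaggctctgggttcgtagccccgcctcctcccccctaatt
Plxnc1, chr10:94944846-94945095, minus strand, start region in 8 libraries: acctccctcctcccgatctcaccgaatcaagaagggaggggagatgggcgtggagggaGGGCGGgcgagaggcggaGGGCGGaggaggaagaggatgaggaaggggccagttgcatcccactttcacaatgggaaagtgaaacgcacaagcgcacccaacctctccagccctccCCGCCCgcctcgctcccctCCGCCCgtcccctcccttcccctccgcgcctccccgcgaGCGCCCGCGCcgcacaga
Ephb1, chr9:102354694-102354943, minus strand, start region in 6 libraries: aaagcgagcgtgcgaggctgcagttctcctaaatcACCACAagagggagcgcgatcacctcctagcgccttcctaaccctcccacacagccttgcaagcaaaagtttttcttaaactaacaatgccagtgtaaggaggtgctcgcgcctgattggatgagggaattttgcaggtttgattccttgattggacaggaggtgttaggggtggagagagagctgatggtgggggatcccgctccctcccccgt
Sema5a, chr15:32244563-32244812, plus strand, start region in 2 libraries: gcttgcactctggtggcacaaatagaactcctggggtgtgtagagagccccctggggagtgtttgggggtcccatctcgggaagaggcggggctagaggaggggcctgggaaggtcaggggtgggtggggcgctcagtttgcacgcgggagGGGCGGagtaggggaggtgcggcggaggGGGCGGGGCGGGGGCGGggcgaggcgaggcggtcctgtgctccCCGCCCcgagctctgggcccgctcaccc
Capitals mark letters that match a searched motif on either strand. In Epha7 and Sema5a they are SP/KLF boxes (GGGCGG), 1 in Epha7 and 5 in Sema5a, where some overlap. Plxnc1 has 4 such boxes and an NRF1 match (GCGC, any 2 bases, GCGC), which shares no letter with them. The capitals in Ephb1 mark a RUNX match (TGTGGT), and Ephb1 has no SP/KLF box in this window. The CpG count was 25 in Epha7, 22 in Plxnc1, 10 in Ephb1 and 17 in Sema5a.

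Guidance genes held 5.24 union regions per 100 kb of gene and flanks in L-GMPs, against 8.48 over all protein-coding genes. Per gene the order was the other way or equal. The median guidance gene held 2 to 5 regions in a library, against 2 to 3 over all protein-coding genes. At least 1 was held by 78.4 to 88.2% of guidance genes, against 73.4 to 78.9%. Guidance genes were also longer, with a median span of 29 kb against 17.3 kb over all protein-coding genes. By family, ephrins held 10.5 regions per 100 kb, plexins 8.28, semaphorins 5.12 and Eph receptors 3.27. Eph receptor genes were also the longest, with a median span of 92.1 kb, against 40.5 kb for plexins, 34.4 kb for semaphorins and 9.85 kb for ephrins. A region was found at 49 of the 51 genes, the exceptions being Sema3c and Sema3e, which encode secreted class 3 semaphorins. One region belonged to 2 genes, which gives 408 pairs of gene and region. Of these, 97 (23.8%) were held by all 8 libraries and 101 (24.8%) by 1 library, against 24.1% and 23.5% of all union regions. The share held by all 8 libraries was 28.5% for semaphorins, 25.3% for plexins, 23.2% for ephrins and 15.2% for Eph receptors. In 51 pairs (12.5%) the region overlapped another protein-coding gene, and the strongest region in the semaphorin windows, downstream of Sema4b at a mean percentile of 99.2, lay in Cib1 and Gdpgp1.

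**Figure D1:**
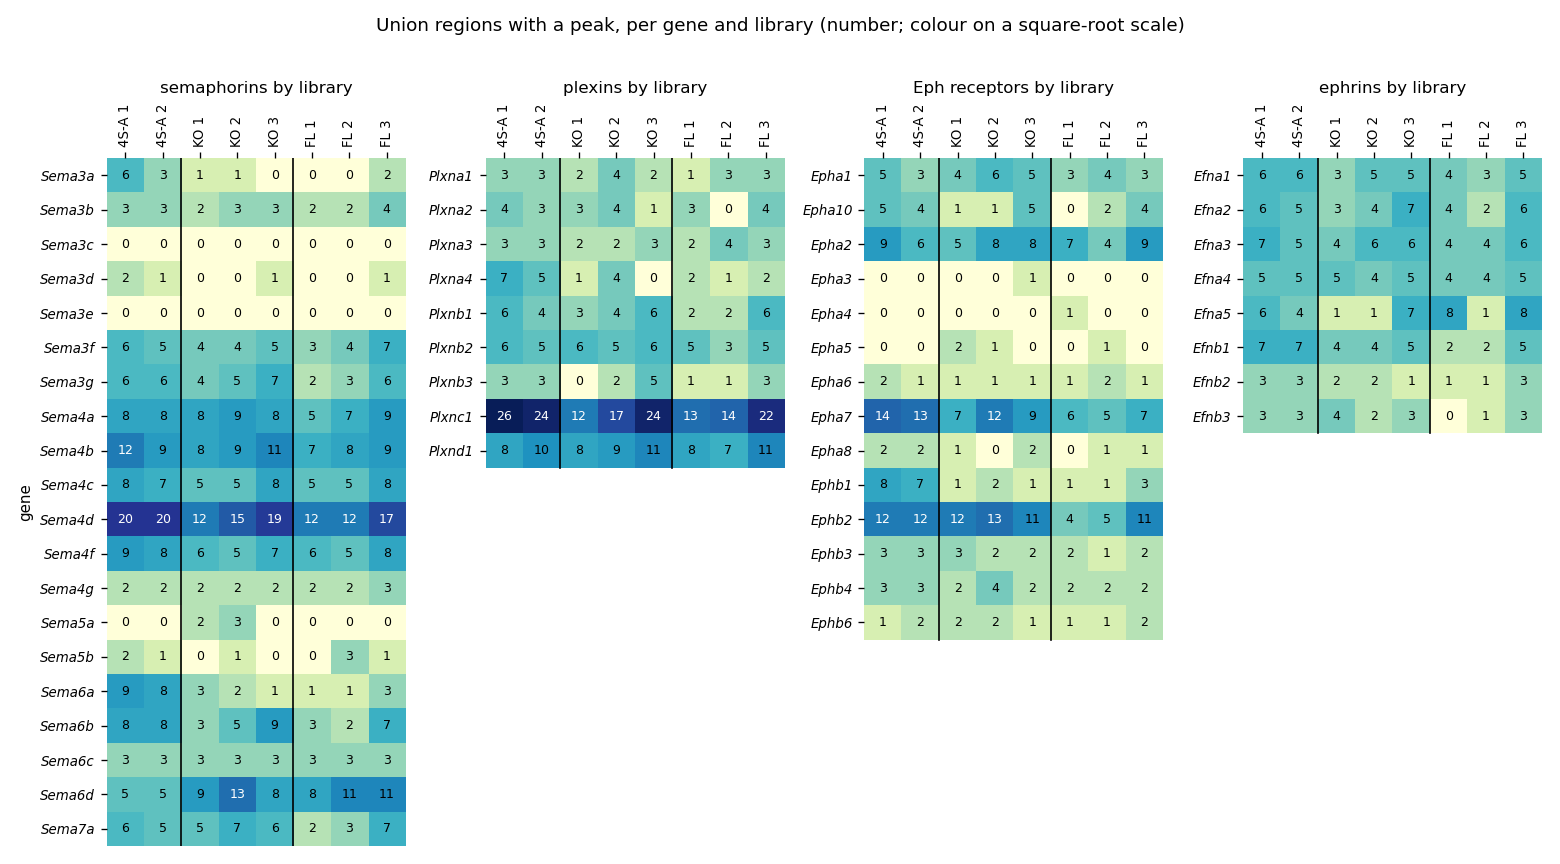
Number of union regions with a peak in each library (columns, 4S-A then KO then FL) for each of the 51 genes (rows), in 4 panels by family, with black lines between groups and colour on a square-root scale. Plxnc1 and Sema4d hold the most regions, equalled by Ephb2 in KO 1, Sema3c and Sema3e hold none, and Ephb1 and Sema6a hold 7 to 9 in 4S-A and 1 to 3 elsewhere.

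Gene starts were next examined, a start region being one whose summit lies within 1 kb of an annotated start. Of 45 guidance genes with an annotated start, 19 (42.2%, interval 27.7 to 57.8%) had a start region in all 8 libraries, 18 in some and 8 in none. Over all 17274 protein-coding genes with such a start, 53.2% had one in all 8 libraries and 33.5% had none. Semaphorins lay near these shares, 9 of 17 having a start region in all libraries (52.9%) and 6 in none (35.3%). By contrast, 10 of 14 Eph receptors had one in some libraries only, as did 2291 of the 17274 genes. Among plexins 4 of 7 and among ephrins 3 of 7 were open at the start in all libraries. The median promoter held 23 CpG where the start was open in all 8 libraries, 21.5 where it was open in some and 12.5 where it was open in none, against 22, 11 and 3 over all protein-coding genes in the same classes. These windows run from 250 bases before to 50 after the start.

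SP/KLF boxes stood in 34 of 45 guidance promoters (75.6%), against 47.4% of all promoters of this length. A TATA box (TATAAA) stood in 1 (2.22%), that of Efnb2, against 13.3%, and the NRF1 motif in 1 (2.22%), that of Plxnc1, against 9.05%. RUNX matches stood in Efna4, Ephb1, Plxna3, Plxnb3 and Sema3a (11.1%, against 14.8%). C/EBP letters (TTGCNNAA) stood in Plxna3, Sema4a and Sema4b (6.67%, against 10.2%), and AP-1 letters (TGANTCA) in Sema4c and Sema6b (4.44%, against 7.07%). Letters of PU.1-type ETS sites (GAGGAAGT) and of PBX-HOX sites (TGATNNAT) stood in 0 of the 45, against 3.24% and 7.60% of all promoters. All motifs were searched on both strands. A match is a description of letters and not of binding.

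Sema6c, which encodes a membrane-bound class 6 semaphorin, had the strongest start region (chr3:95159825-95161253). Its percentiles were 98.7 and 98.6 in 4S-A, 97.4, 95.5 and 98.6 in KO, and 94.9, 97.3 and 99.7 in FL. Sema6c also held the same 3 regions in every library. Epha7 came next (chr4:28812658-28814156), with 93.5 and 93.9 in 4S-A, 96.1, 97.8 and 90.9 in KO, and 94.5, 91.9 and 91.7 in FL. EPHA7 is an ephrin-A receptor, and in human leukemia cells it has been described as switched on by MLL fusion proteins. Plxnd1, which encodes the receptor of SEMA3E, followed at 90.3 and 91.6 in 4S-A, 91.0, 91.8 and 92.4 in KO, and 87.7, 90.2 and 89.4 in FL. The other genes among the 8 with the highest mean were Sema6b (88.5), Efnb2 (88.2), Efnb1 (86.8), Sema3f (86.2) and Ephb3 (84.7). Ephb3 spread the most of these, with 97.9 and 93.9 in 4S-A, 85.1, 89.6 and 81.4 in KO, and 71.1, 68.4 and 90.2 in FL. For Sema3f no start was annotated, and either end of the gene was taken.

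**Figure D2:**
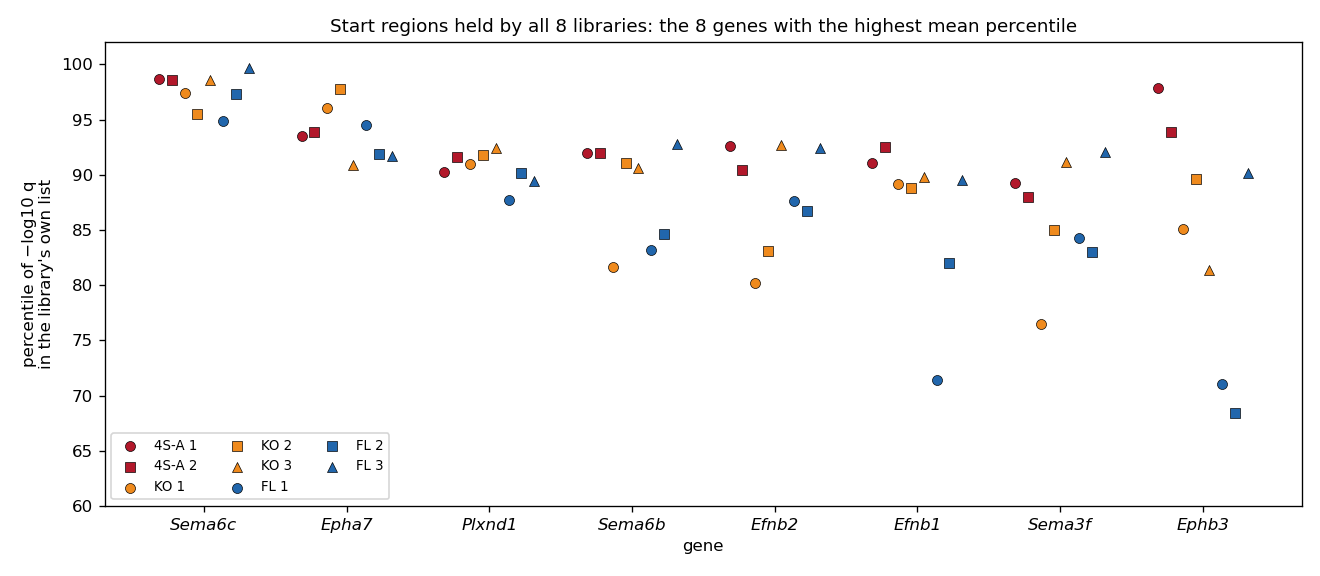
Percentile of −log10 q in the library's own list (vertical axis, starting at 60) of the start region of the 8 genes with the highest mean percentile, 1 point per library, 4S-A red, KO orange and FL blue, with the marker shape giving the replicate. Sema6c, Epha7 and Plxnd1 stay above 87 in all 8 libraries, and Efnb1 and Ephb3 reach 71.4 and 68.4 at their lowest.

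Among ligands, Sema4d held the most regions of any semaphorin, 26 in all. SEMA4D, also known as CD100, is a membrane-bound semaphorin that binds plexin B1 and, on immune cells, CD72. Regions numbered 20 and 20 in 4S-A, 12, 15 and 19 in KO, and 12, 12 and 17 in FL. The libraries of the Tie2-Cre set stood above those of the Mx1-Cre set, and 9 of the 26 regions were held by all 8. In equal-length lists the sets overlapped, with 10 and 10 in 4S-A, 11, 13 and 12 in KO, and 12, 12 and 14 in FL. Sema4b, another membrane-bound class 4 semaphorin, held 12 and 9 regions in 4S-A, 8, 9 and 11 in KO, and 7, 8 and 9 in FL, so all 3 groups overlapped. Its start region (chr7:80198022-80199064) stood at 83.0 and 85.2 in 4S-A, 56.6, 67.8 and 79.6 in KO, and 71.2, 74.0 and 83.8 in FL. Sema7a, which encodes a lipid-anchored semaphorin found on lymphocytes, held 6 and 5 regions in 4S-A, 5, 7 and 6 in KO, and 2, 3 and 7 in FL. Sema5a held 2 and 3 regions in KO 1 and KO 2 and none in the other 6 libraries. The Sema5a start region (chr15:32244628-32245285) stood at 37.9 in KO 1 and 6.71 in KO 2.

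Ephrins were mostly short genes, with a median of 6.5 regions, against 7 for semaphorins, 7 for plexins and 5 for Eph receptors. Efna5, which encodes a lipid-anchored ligand of EphA receptors, held 14 regions, none in all 8 libraries, with 6 and 4 in 4S-A, 1, 1 and 7 in KO, and 8, 1 and 8 in FL. In equal-length lists Efna5 held 8 regions in FL 1, 0 in KO 1 and 1 in each of the other 6 libraries. A region 67.7 kb inside Efna5 (chr17:62813367-62813858) stood at 78.7 and 81.0 in 4S-A, 83.0 in KO 3, and 22.0 and 81.0 in FL 1 and FL 3, and was absent from KO 1, KO 2 and FL 2. Efna3 held 7 and 5 regions in 4S-A, 4, 6 and 6 in KO, and 4, 4 and 6 in FL. Efnb1, which encodes a transmembrane ligand of EphB receptors, held 7 and 7 in 4S-A, 4, 4 and 5 in KO, and 2, 2 and 5 in FL.

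Among receptors, Plxnc1 held 29 regions, the most of any guidance gene. Plexin C1 binds SEMA7A and is found on myeloid cells. Its regions numbered 26 and 24 in 4S-A, 12, 17 and 24 in KO, and 13, 14 and 22 in FL, and 10 were held by all 8 libraries. Equal-length lists held 14 and 16 in 4S-A, 12, 12 and 14 in KO, and 13, 14 and 12 in FL. The strongest lay 116.0 kb inside the gene (chr10:94827924-94829753) at 91.3 and 94.4 in 4S-A, 84.2, 91.9 and 91.4 in KO, and 81.4, 84.0 and 93.2 in FL. Ephb2, which encodes an ephrin-B receptor, held 19 regions, with 12 and 12 in 4S-A, 12, 13 and 11 in KO, and 4, 5 and 11 in FL. FL 1 and FL 2 were the low libraries, and FL 3 equalled KO 3. In equal-length lists KO 1 and KO 2 were the high ones, with 3 and 3 in 4S-A, 9, 7 and 3 in KO, and 4, 4 and 2 in FL. Epha3 and Epha4 held 1 region each, in KO 3 and in FL 1, and the members given no count in the text held 2 to 11 regions each.

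Knockout was compared with control first over all 6 libraries, a lost region being one that all FL libraries held and no KO library did, and a gained region the opposite. Among the 108 guidance regions shared by the FL libraries, 2 were lost (1.85%, interval 0.225 to 6.53%), beside 0.214% of all union regions. Among the 139 shared by the KO libraries, 0 were gained (interval up to 2.62%), beside 0.754% of all union regions. One lost region lay 1.7 kb upstream of Efna5 (chr17:62882833-62883299), where 4S-A 2 had a percentile of 4.45 and the FL libraries had 9.06, 42.6 and 7.64. The other lay in the window of Plxnb3 but in the neighbouring gene Srpk3 (chrX:73774212-73774781), at 0.964, 10.1 and 1.16 in FL. Plxnb3 encodes a receptor of SEMA5A, and held 3 and 3 regions in 4S-A, 0, 2 and 5 in KO, and 1, 1 and 3 in FL. Apart from the 42.6 of the Efna5 region in FL 2, both lost regions stood low in the FL lists. Equal-length lists gave 0 lost of 90 and 0 gained of 95, beside 0.563% and 0.706% of all regions. Without KO 3, 4 of 108 regions were lost (3.70%, beside 1.46% of all regions), and 3 were lost without FL 1, FL 2 or FL 3 (2.26 to 2.70%, beside 0.627 to 0.758%). Without FL 3, 12 of 139 regions were gained (8.63%, beside 10.7%), and without KO 3, 8 of 157 (5.10%, beside 2.67%). Without KO 1, 3 of 169 were gained (1.78%, beside 2.42%), and without KO 2 or FL 2 1 was (0.676 and 0.719%, beside 1.26 and 0.958%). No guidance gene held more regions in every KO than in every FL library, and none held fewer, beside 0.411% and 0.153% of all protein-coding genes. Without FL 3, 8 guidance genes (15.7%) held more in every KO library, beside 12.9% of all genes. Without KO 1 or KO 3, 2 did (3.92%, beside 2.75% and 0.989%), without KO 2 or FL 2, 1 did (1.96%, beside 0.772% and 0.541%), and Efna5 held fewer without FL 2 (1.96%, beside 0.398%). In equal-length lists Sema7a alone held more in every KO library, beside 0.717% of all genes, and 0 held fewer, beside 0.587%. There 2 held more without KO 1 and 3 without KO 3 or FL 3 (beside 1.66%, 2.82% and 3.79%), and 1 held fewer without KO 1, KO 3, FL 1 or FL 3 (beside 1.05%, 2.34%, 1.35% and 2.64%).

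In the Mx1-Cre set, knockout gained 25 of 157 regions (15.9%, interval 10.6 to 22.6%) and lost 5 of 111 (4.50%, interval 1.48 to 10.2%). All union regions gave 13.5% gained and 2.07% lost, so the gained share lay near the background and the interval of the lost share included it. Ephb2 held 5 of the gained regions and Sema7a and Sema5a 2 each, the other 16 being spread over 16 genes. The lost regions belonged to Efna5, Plxnb3, Plxnc1, Sema4f and Sema6d, and that of Sema4f lay in the neighbouring gene M1ap. More regions in both KO than in both FL libraries were held by 13 guidance genes (25.5%), beside 13.9% of all genes, and fewer by 0, beside 1.44%. Guidance genes were longer and more often held a region than all genes. The shares of all genes were not matched for this, here or in the other comparisons. The 13 were Ephb2, Epha7, Sema7a, Sema4a, Efnb3, Sema5a, Sema3g, Efnb1, Plxnb1, Sema6a, Sema3a, Ephb6 and Efnb2. In equal-length lists 6 of these still held more, namely Efnb1, Efnb3, Ephb2, Sema5a, Sema6a and Sema7a, beside 6.46% of all genes, while Plxnc1, Plxnb3 and Sema6d held fewer, beside 4.89%. KO lists were longer than FL lists in this set, and equal-length lists gave 12 of 128 gained (9.38%) and 8 of 109 lost (7.34%), beside 7.88% and 5.01%. Genes with more regions in knockout numbered 30 without KO 1 (58.8%, beside 35.1% of all genes) and 17 without KO 2 (33.3%, beside 16.8%). They numbered 20 without FL 1 or FL 2 (39.2%, beside 20.1% and 22.7%). Genes with fewer numbered 0, 2, 4 and 2 without KO 1, KO 2, FL 1 and FL 2 (beside 1.90%, 7.85%, 6.95% and 4.52%). In equal-length lists 9, 11, 13 and 10 genes held more without KO 1, KO 2, FL 1 and FL 2 (beside 12.1%, 13.0%, 12.0% and 12.3%). In the same order 4, 6, 9 and 9 held fewer (beside 8.25%, 9.60%, 12.4% and 12.5%). Gained regions were 74 of 222 without KO 1 (33.3%, beside 29.0% of all regions) and 46 of 180 without KO 2 (25.6%, beside 19.5%). They were 38 and 40 of 157 without FL 1 and FL 2 (24.2 and 25.5%, beside 19.8 and 21.4%). Lost regions were 23 and 25 of 152 without FL 1 and FL 2 (15.1 and 16.4%, beside 13.0 and 9.49%).

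In the Tie2-Cre set 1 knockout stood against 1 control, with no replicate check. Of 250 regions in FL 3, KO 3 lacked 41 (16.4%, interval 12.0 to 21.6%), and of 242 in KO 3, FL 3 lacked 33 (13.6%, interval 9.58 to 18.6%). All union regions gave 14.4% and 15.3%, inside both intervals. Sema6d accounted for 4 of the missing regions and Plxna2, which encodes a class 3 semaphorin receptor, for 3. Epha7, Plxnb3 and Plxnc1 had 3 regions each in KO 3 alone of the pair. KO 3 held more regions than FL 3 at 13 genes and fewer at 18 (25.5 and 35.3%), beside 22.7% and 18.8% of all genes. In equal-length lists these were 7 and 14 (13.7 and 27.5%), beside 15.2% and 14.6%. In the deposited lists Epha7 and Sema3g were the guidance genes with more regions in knockout in both sets (3.92%, beside 4.39% of all genes). In equal-length lists these were Ephb2 and Sema7a instead, beside 1.52% of all genes. Epha7 held 7 and 12 regions in KO 1 and KO 2, where FL 1 and FL 2 held 6 and 5, and 9 in KO 3, where FL 3 held 7. Sema3g, which encodes a secreted semaphorin of vessels, held 4 and 5 in KO 1 and KO 2, where FL 1 and FL 2 held 2 and 3, and 7 in KO 3, where FL 3 held 6. No guidance gene had fewer in both sets in the deposited lists, beside 0.356% of all genes, and Sema6d did in equal-length lists, beside 1.02%. There Sema6d held 8 and 7 regions in KO 1 and KO 2, where FL 1 and FL 2 held 9 and 10, and 5 in KO 3, where FL 3 held 6.

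The serine mutant was set against FL 3 and KO 3, the other libraries of its set. The 4S-A libraries shared 240 regions, of which 29 were missing from FL 3 and KO 3 alike (12.1%, interval 8.24 to 16.9%). Of 209 held by FL 3 and KO 3, 8 were in neither 4S-A library (3.83%, interval 1.67 to 7.40%). The shares over all union regions were 10.8% and 5.16%, inside both intervals. Sema6a held 5 of the 29 gained regions, Plxna4 4, and Epha7 and Ephb1 3 each, while Sema6d held 3 of the 8 lost ones. Equal-length lists gave 16 of 121 gained (13.2%, interval 7.75 to 20.6%) and 18 of 118 lost (15.3%, interval 9.30 to 23.0%), beside 9.30% and 7.03% of all regions. The lost share thus stood below that of all regions in the deposited lists and above it in equal-length lists. Gained regions in the deposited lists were 54 of 287 without 4S-A 2 (18.8%, beside 17.3%) and 44 of 240 without FL 3 (18.3%, beside 15.0%). Lost regions were 18 and 12 of 209 without 4S-A 1 and 4S-A 2 (8.61 and 5.74%, beside 10.7 and 6.98%), 26 of 242 without FL 3 (10.7%, beside 10.9%) and 23 of 250 without KO 3 (9.20%, beside 11.7%). Against FL 3 alone, 38 of 240 regions were gained (15.8%, interval 11.5 to 21.1%) and 23 of 250 lost (9.20%, interval 5.92 to 13.5%), beside 16.4% and 11.7% of all regions. Without 4S-A 2, 68 of 287 were gained (23.7%, beside 24.3%), and without 4S-A 1, 40 of 250 were lost (16.0%, beside 18.8%).

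**Figure D3:**
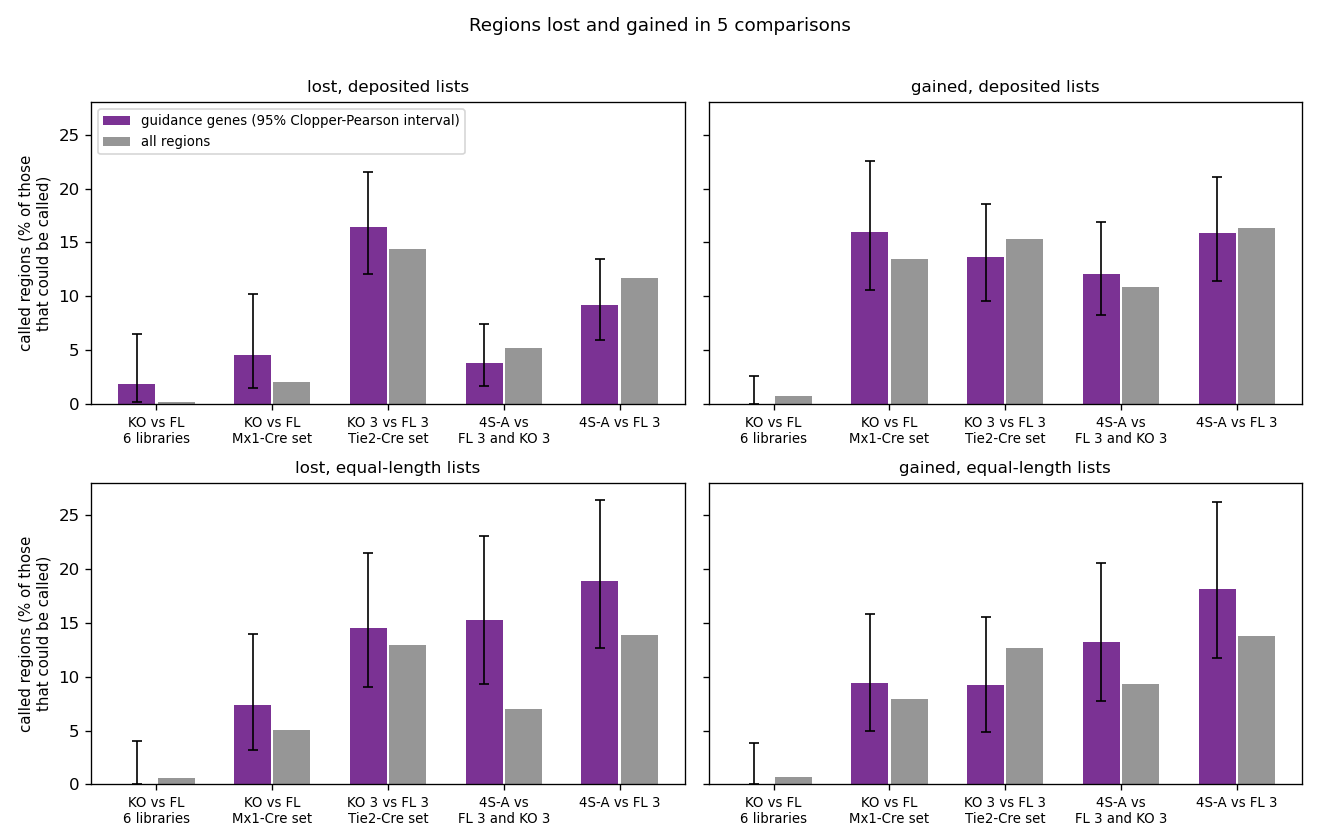
Percent of the regions that could be called which were lost (left) and gained (right) in 5 comparisons, in the deposited lists (top) and in lists of equal length (bottom). Purple bars give the guidance genes with exact 95% Clopper-Pearson intervals, and grey bars give all union regions. Regions lost in 4S-A against FL 3 and KO 3 made up 15.3% beside 7.03% of all regions in equal-length lists, and 3.83% beside 5.16% in the deposited lists.

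By gene, 11 members (21.6%) held more regions in both 4S-A libraries than in FL 3 and KO 3, beside 11.4% of all genes, and 3 (5.88%) held fewer, beside 6.27%. The 11 were Sema6a, Epha7, Ephb1, Plxna4, Sema3a, Sema4d, Efnb1, Efna1, Ephb2, Ephb4 and Ephb3, and the 3 were Sema6d, Efna5 and Plxnd1. Genes with more numbered 11 without 4S-A 1 (21.6%, beside 14.8%) and 18 without 4S-A 2 (35.3%, beside 22.9%). They numbered 16 without FL 3 (31.4%, beside 16.7%) and 14 without KO 3 (27.5%, beside 19.1%). Those with fewer numbered 9 without 4S-A 1 (17.6%, beside 15.5%) and 3 without 4S-A 2 (5.88%, beside 8.43%). Without FL 3 or KO 3 they numbered 8 (15.7%, beside 13.6% and 13.1%). In equal-length lists 6 held more and 11 fewer (11.8 and 21.6%), beside 6.33% and 7.73%. Epha7, Ephb1, Plxna4, Sema3a and Sema6a held more in both kinds of list, and Sema6d and Plxnd1 fewer. Sema4d and Efnb1 were among the 11 with more in the deposited lists and among the 11 with fewer in equal-length lists. In equal-length lists Sema4d held 10 and 10 regions in 4S-A, against 12 in KO 3 and 14 in FL 3, and Efnb1 held 3 and 2 in 4S-A, against 4 in KO 3 and 5 in FL 3. There 8, 7, 7 and 9 genes held more without 4S-A 1, 4S-A 2, FL 3 and KO 3 (beside 9.39%, 9.24%, 9.83% and 10.7%). In the same order 13, 11, 11 and 12 held fewer (beside 12.1%, 11.4%, 14.1% and 14.8%).

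Ephb1 encodes a receptor tyrosine kinase for ephrin-B ligands. It held 8 and 7 regions in 4S-A, 1, 2 and 1 in KO, and 1, 1 and 3 in FL, so the 4S-A libraries stood above all 6 others. They also did in equal-length lists, with 5 and 5 in 4S-A, 1, 0 and 0 in KO, and 1, 1 and 1 in FL. A region 26.8 kb inside the gene (chr9:102327480-102328384) stood at percentiles of 91.8 and 93.5 in 4S-A 1 and 4S-A 2 and was in no other list. A second (chr9:102191435-102192057), 163.0 kb inside, stood at 70.9 and 75.0 in the same libraries alone. Neighbouring regions on either side of it were held by FL 3 as well, at 24.6 beside 83.3 and 83.9 in 4S-A (chr9:102189026-102189814) and at 36.3 beside 84.5 and 84.1 (chr9:102196569-102197438). The start region over the promoter printed above (chr9:102354206-102355052) stood at 69.9 and 62.9 in 4S-A, 35.4, 19.0 and 25.7 in KO, and 59.0 in FL 3, and FL 1 and FL 2 held no peak. The 500 kb on each side of Ephb1 held 46 and 44 regions in 4S-A, 24, 28 and 33 in KO, and 17, 21 and 39 in FL.

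Plxna4 encodes a plexin that serves class 3 and class 6 semaphorins. It held 7 and 5 regions in 4S-A, 1, 4 and 0 in KO, and 2, 1 and 2 in FL. Equal-length lists held 4 and 4 in 4S-A, 1, 2 and 0 in KO, and 2, 1 and 1 in FL. The strongest (chr6:32179354-32180056) stood at 94.4 and 92.9 in 4S-A alone, and a second (chr6:32167457-32168284) at 78.9 and 75.2, also in 4S-A alone. Both lay within 40 kb of the lower-coordinate end of the gene, and no start is annotated for Plxna4 in the table used. Another region beside them (chr6:32184447-32185009) was shared, at 78.4 and 72.6 in 4S-A, 52.6 and 71.2 in KO 1 and KO 2, and 45.8 in FL 3. The flanks of Plxna4 held 16 and 12 regions in 4S-A, 6, 11 and 9 in KO, and 6, 6 and 15 in FL.

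Sema6a encodes a membrane-bound semaphorin that binds plexin A4 and plexin A2. It held 9 and 8 regions in 4S-A, 3, 2 and 1 in KO, and 1, 1 and 3 in FL, again with both 4S-A libraries above all others. In equal-length lists the margin was 1 region, with 3 and 3 in 4S-A, 2, 2 and 0 in KO, and 1, 1 and 2 in FL. Its strongest region, inside the gene, stood at 92.5 and 94.4 in 4S-A alone. Flanking regions numbered 23 and 19 in 4S-A, 9, 12 and 16 in KO, and 6, 8 and 13 in FL. Sema3a, which encodes the prototype secreted repellent of axons, held 6 and 3 regions in 4S-A, 1, 1 and 0 in KO, and 0, 0 and 2 in FL. Equal-length lists held 2 and 2 in 4S-A, 1, 0 and 0 in KO, and 0 in FL. A Sema3a region 130.0 kb inside the gene (chr5:13526938-13527629) stood at 61.8 and 84.7 in 4S-A, 33.7 and 20.1 in KO 1 and KO 2, and 41.3 in FL 3.

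Over all union regions, 8230 of the 84377 in both 4S-A libraries (9.75%) were in none of the other 6 lists. Guidance genes held 24 of these regions, out of 240 that they held in both 4S-A libraries, a share near that of all regions. Ranked by mean 4S-A percentile among the 8230, the strongest Plxna4 region was number 4 at 93.6, that of Sema6a number 5 at 93.4 and that of Ephb1 number 6 at 92.6. The median of all 8230 was 27.2. Next among guidance genes came the second regions of Plxna4 and Ephb1, numbers 177 and 275. The genes were proposed with these ranks known.

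Epha7 held 14 and 13 regions in 4S-A, 7, 12 and 9 in KO, and 6, 5 and 7 in FL. In equal-length lists most of that difference was absent, with 6 and 7 in 4S-A, 5, 5 and 5 in KO, and 6, 5 and 5 in FL. It was open at its start in every list, as given above, and again at 99.4 kb inside (chr4:28912000-28913017), where percentiles were 90.1 and 90.1 in 4S-A, 91.1, 93.7 and 91.4 in KO, and 86.9, 91.8 and 90.7 in FL. The additional 4S-A regions were weaker: a pair near 136.0 kb inside stood at 48.6 and 54.1 (chr4:28948550-28948848) and at 32.6 and 36.5 (chr4:28949123-28949452). The flanks of Epha7 held 8 and 6 regions in 4S-A, 0, 0 and 0 in KO, and 0, 1 and 0 in FL. Efnb1 and Efna1, the ephrins among the 11 genes, had 1 region each in 4S-A alone. That of Efnb1 (chrX:99148538-99148806) stood at 34.5 and 31.1, and that of Efna1 (chr3:89287288-89287833) at 18.5 and 2.50.

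**Figure D4:**
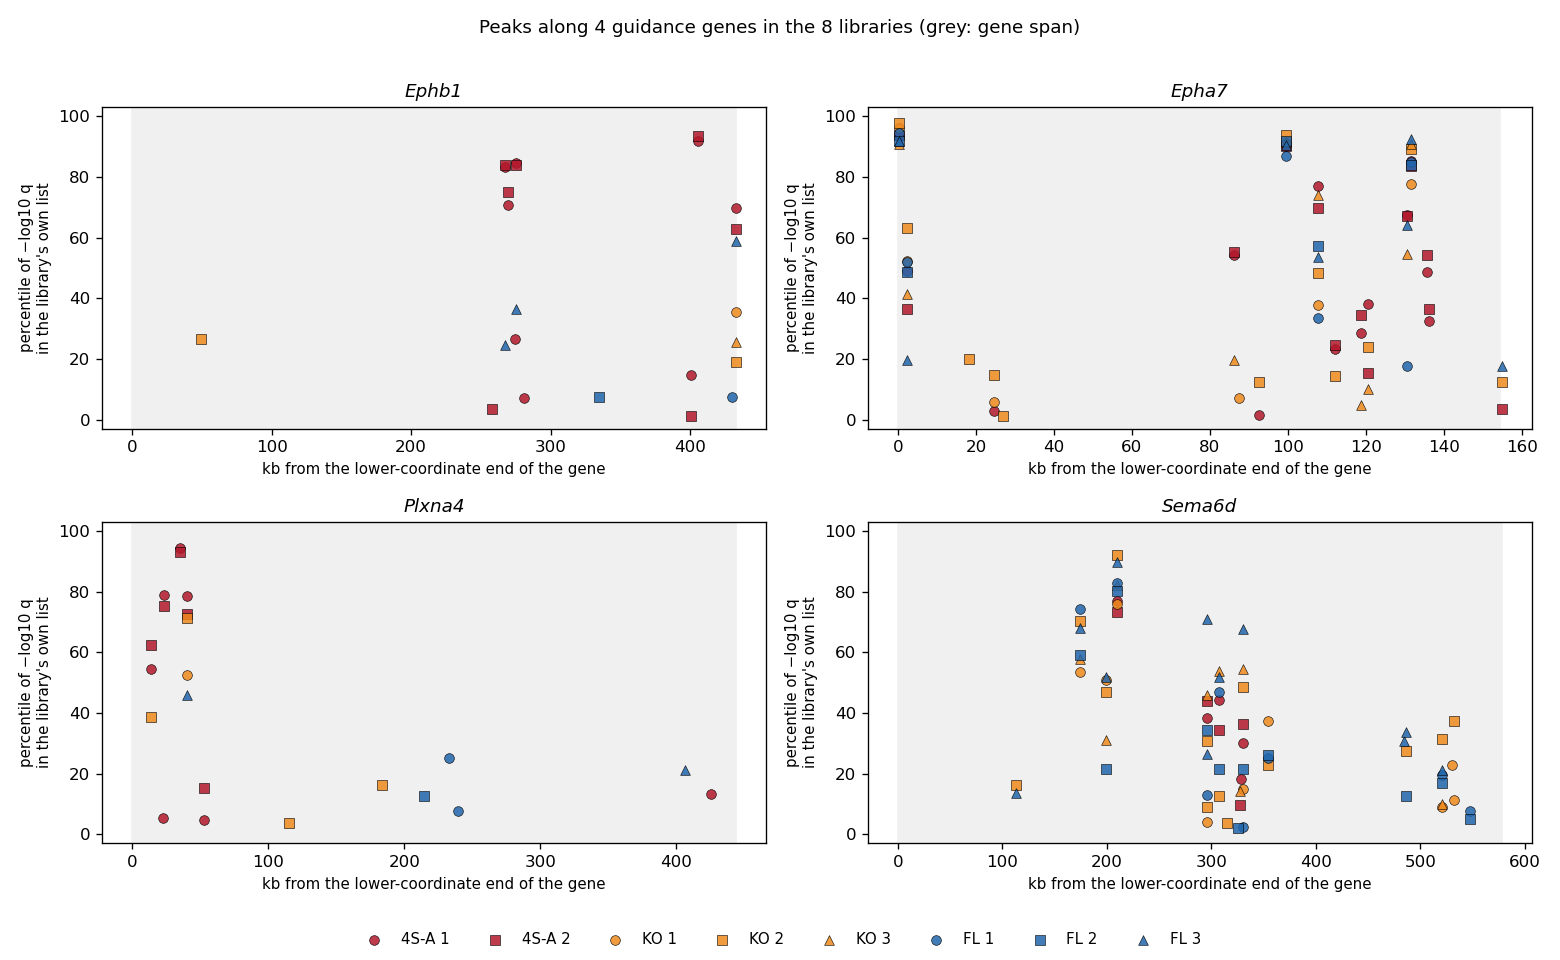
Percentile of −log10 q in the library's own list (vertical axis) of every peak region of Ephb1, Epha7, Plxna4 and Sema6d against its distance in kb from the lower-coordinate end of the gene (horizontal axis, gene span in grey), with 4S-A red, KO orange and FL blue and the marker shape giving the replicate. Ephb1 and Plxna4 show 4S-A points above 70 where no other library has a point, Epha7 is held by all libraries near 0, 99.4 and 131.0 kb, and Sema6d has a site near 174.0 kb with KO and FL points only.

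Sema6d went the other way. The gene encodes a membrane-bound semaphorin that binds plexin A1, and held 5 and 5 regions in 4S-A, 9, 13 and 8 in KO, and 8, 11 and 11 in FL, so both 4S-A libraries stood below all 6 others. Equal-length lists held 1 and 1 in 4S-A, 8, 7 and 5 in KO, and 9, 10 and 6 in FL. A region 174.0 kb inside (chr2:124264165-124264711) was absent from 4S-A and stood at 53.5, 70.4 and 57.9 in KO and 74.1, 59.1 and 67.9 in FL. Another (chr2:124609828-124610984) was absent from 4S-A and stood at 9.06, 31.3 and 9.95 in KO and 19.5, 16.9 and 21.1 in FL. These were the only guidance regions in all 6 KO and FL lists and in neither 4S-A list. Over all union regions, 467 of the 34313 in all 6 KO and FL lists (1.36%) had that pattern. The first of the pair was number 25 among them by mean percentile. A nearby Sema6d region (chr2:124298795-124299413) was held by all 8 libraries. Flanks of Sema6d held 8 and 4 regions in 4S-A, 8, 8 and 5 in KO, and 2, 7 and 6 in FL. Plxnd1 held 8 and 10 regions in 4S-A, 8, 9 and 11 in KO, and 8, 7 and 11 in FL. In the deposited lists its shortfall was thus against KO 3 and FL 3 alone. Equal-length lists held 5 and 5 Plxnd1 regions in 4S-A, 8, 7 and 6 in KO, and 8, 6 and 6 in FL. There both 4S-A libraries stood below all 6 others.

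As a share of the whole list, peaks in guidance windows made up 0.288% and 0.280% in 4S-A, 0.341%, 0.331% and 0.272% in KO, and 0.322%, 0.297% and 0.282% in FL. The means were 0.284% ± 0.00565 in 4S-A (SD, n = 2), 0.315% ± 0.0375 in KO (SD, n = 3) and 0.300% ± 0.0205 in FL (SD, n = 3). The KO minus FL difference of 0.0144 points was smaller than the SD of either group. It was 0.0265 points inside the Mx1-Cre set and −0.00978 inside the Tie2-Cre set. The 4S-A minus FL 3 and KO 3 difference was 0.00694 points, and −0.000971 in equal-length lists. Without KO 1 the KO minus FL difference was 0.00113 points, and without KO 3 it was 0.0359.

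Partners of the families were taken as lists and chosen with earlier results of these data known. Of 25 semaphorin and plexin partners, 12 had more and 6 fewer regions in KO 3 than in FL 3, and 2 had more and 2 fewer in both 4S-A libraries than in FL 3 and KO 3, beside the 22.7%, 18.8%, 11.4% and 6.27% of all genes given above. The co-receptor gene Nrp1 held 16 and 12 regions in 4S-A, 4, 6 and 12 in KO, and 3, 4 and 9 in FL. Mical3, which encodes an oxidase that plexins use on actin, held 36 and 33 in 4S-A, 18, 24 and 31 in KO, and 18, 16 and 25 in FL. Itgb1, an integrin subunit that SEMA7A engages, held 4 regions in each 4S-A library, 4 in each KO library, and 1, 1 and 3 in FL. Only Itgb1 of these 25 partners had more in every KO than in every FL library, beside 0.411% of all genes. Of 19 Eph and ephrin partners, 6 had more and 8 fewer in KO 3 than in FL 3. In 4S-A, 5 had more and 2 fewer. Vav3, a guanine nucleotide exchange factor, was among these 5. It held 35 and 31 in 4S-A, 11, 20 and 28 in KO, and 8, 10 and 30 in FL. Of 25 other guidance genes, 5 had more and 8 fewer in KO 3 than in FL 3. In 4S-A, 3 had more (Slit3, Robo2 and Rgma) and 2 fewer. In the Mx1-Cre set, where KO lists were longer, 3, 8 and 5 genes of the 3 lists had more in both KO libraries. There 0, 0 and 2 had fewer, beside 13.9% and 1.44% of all genes for more and fewer. Robo2, which encodes a SLIT receptor, held 3 and 2 regions in 4S-A and 0 in the other 6 libraries, and the netrin receptor gene Dcc held 0 in all 8.

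Among marker lists of other cells, the endothelial and stromal sums were higher in both 4S-A libraries than in all 6 others, and the other lists were not. The 4S-A peak lists were also the longest, and these sums are from the deposited lists only. Beside the counts of marker genes higher or lower in both 4S-A libraries than in FL 3 and KO 3 stand the 11.4% and 6.27% of all protein-coding genes given above. Summed over 10 endothelial genes, regions numbered 76 and 76 in 4S-A, 40, 54 and 66 in KO, and 29, 34 and 63 in FL, with Cdh5 and Tek of the 10 higher in both 4S-A libraries. Tek held 4 and 4 regions in 4S-A and 0 in the other 6 libraries, and Emcn held 0 throughout. Over 8 stromal genes the sums were 43 and 40 in 4S-A, 23, 26 and 32 in KO, and 16, 19 and 28 in FL, 4 of the 8 being higher in 4S-A, and Col3a1 held 0 throughout. Over 10 neural and glial genes they were 55 and 52 in 4S-A, 31, 49 and 53 in KO, and 35, 39 and 52 in FL, with 1 of the 10 higher in 4S-A and 1 lower. Over 6 B cell genes they were 26 and 26 in 4S-A, 19, 24 and 34 in KO, and 20, 19 and 29 in FL, with 0 higher in 4S-A and 2 lower. Over 8 T and NK cell genes they were 23 and 19 in 4S-A, 11, 19 and 24 in KO, and 11, 8 and 20 in FL, with 0 higher. Over 5 megakaryocyte genes they were 19 and 13 in 4S-A, 12, 13 and 17 in KO, and 11, 12 and 20 in FL, with 1 higher and 1 lower. Over 7 erythroid genes they were 16 and 13 in 4S-A, 8, 12 and 15 in KO, and 11, 7 and 13 in FL, with 0 higher. Over 6 macrophage and monocyte genes they were 37 and 37 in 4S-A, 27, 27 and 35 in KO, and 19, 21 and 37 in FL, with 1 higher and 1 lower. Over the 12 markers of the sorted progenitors they were 105 and 98 in 4S-A, 59, 75 and 98 in KO, and 63, 70 and 96 in FL. Of these 12, 1 was higher in 4S-A and 0 were lower. The part of other cell types in the guidance gene counts was not tested. In these bulk libraries a change in the number of cells of a type cannot be told apart from a change in chromatin within a cell.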

How the data were processed

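ATAC-seq peaks of 8 L-GMP libraries (4S-A, 2; KO, 3; FL, 3) were analysed from the narrowPeak lists, 1 per library. The submitters' processing notes name mm10 and the tools Bowtie2 2.2.9, Trim Galore 0.4.4, MACS2, Picard and featureCounts, without roles or parameters. Each list gives, as deposited, a peak's score, which equalled 10 times its −log10 q after truncation, and a fold enrichment, which is a ratio over local background. A −log10 p, a −log10 q and a summit offset per peak complete what the authors deposited. None of these was scaled between libraries. The lowest −log10 q lay between 1.30 and 1.41, near a q of 0.05. Read depth is not given in the sources used here, so list length is the only depth shown.

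Peaks on the 19 autosomes and X were merged over libraries where they shared at least 1 bp, and a region was given to each gene within 10 kb of a summit, using RefSeq spans of GRCm38.p6, the assembly also called mm10. Exons were not used, and starts came from the RefSeq promoter table, which held 45 of the 51 genes. For Efnb3, Plxna1, Plxna4, Sema3b, Sema3f and Sema6a either end of the gene served. Groups came from the sample labels. Lost and gained regions were counted, as were genes whose libraries do not overlap between groups, each beside the same count over all regions or genes. Alternatives were equal-length lists, a −log10 q of at least 3, 50% of the region covered, the gene span alone, a 25 kb window, and each library left out. Counting was tested on simulated lists. Python 3.11.15, pandas 2.3.3, NumPy 2.4.6, SciPy 1.17.1 and matplotlib 3.10.9 were used.

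The genes, the partner lists and the marker lists were chosen with earlier results of these data known, so no test was made. Named are the 3 genes of each family with the most regions, the 8 strongest start regions held by all libraries, genes with a region called in KO against FL over 6 libraries, up to 8 genes with more and 4 with fewer regions in 4S-A than in FL 3 and KO 3, up to 6 with more and 6 with fewer in KO in both sets, and genes without a region. Other genes were named after their values were seen.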

Additional observations from a re-analysis of the deposited data

Results flagged for a closer look

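In 7 cases, 1 of them the share of the list and 6 of them genes, knockout and control differed in opposite directions in the Mx1-Cre and Tie2-Cre sets, with every library of each set on its side in the deposited lists. Over all protein-coding genes 4.28% had this pattern. The differences between sets were not tested, and the Tie2-Cre set has 1 library per side. Guidance peaks as a percent of the list differed by 0.0265 points (KO minus FL) in the Mx1-Cre set and by −0.00978 points in the Tie2-Cre set. Sema6a had 1.5 regions more in knockout on average in the Mx1-Cre set, with 3 and 2 in KO 1 and KO 2, where FL 1 and FL 2 had 1 and 1. In the Tie2-Cre set it had 1 in KO 3 against 3 in FL 3. Sema3a had 1 region more in the Mx1-Cre set, with 1 and 1 in KO 1 and KO 2, where FL 1 and FL 2 had 0 and 0, and 2 fewer in the Tie2-Cre set, with 0 in KO 3 against 2 in FL 3. Efnb2, which encodes the ephrin that marks arteries, had 1 region more in the Mx1-Cre set, with 2 and 2 in KO 1 and KO 2, where FL 1 and FL 2 had 1 and 1. It had 2 fewer in the Tie2-Cre set, with 1 in KO 3 against 3 in FL 3. Sema7a had 3.5 regions more in the Mx1-Cre set, with 5 and 7 in KO 1 and KO 2, where FL 1 and FL 2 had 2 and 3, and 1 fewer in the Tie2-Cre set, with 6 in KO 3 against 7 in FL 3. Sema4a had 2.5 regions more in the Mx1-Cre set, with 8 and 9 in KO 1 and KO 2, where FL 1 and FL 2 had 5 and 7, and 1 fewer in the Tie2-Cre set, with 8 in KO 3 against 9 in FL 3. Ephb6 had 1 region more in the Mx1-Cre set, with 2 and 2 in KO 1 and KO 2, where FL 1 and FL 2 had 1 and 1, and 1 fewer in the Tie2-Cre set, with 1 in KO 3 against 2 in FL 3. In equal-length lists Sema6a alone of these 6 genes had the pattern, and Efnb1 and Plxnc1 had it as well, beside 2.83% of all genes. The share of the list lost it there, KO 2 with 0.313% standing below FL 1 with 0.322%.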

How the results depend on the processing

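No paired analysis was possible because no result comes from a test and there is no fit to hold a replicate block. Of 70 recomputed values other than those with a library left out, 57 stayed within the interval or spread of the value reported, 10 moved beyond it and 3 changed sign. In equal-length lists the difference in the share of the list changed sign for 4S-A against FL 3 and KO 3 (−0.000971 points) and for 4S-A against FL 3 (−0.00874), and fell to 0.00971 for KO against FL in the Mx1-Cre set. With a 25 kb window that difference for 4S-A against FL 3 was −6.94e-05 points, and inside gene spans the one for 4S-A against FL 3 and KO 3 was 0.0144. In equal-length lists gained regions made up 9.23% for KO 3 against FL 3 (12.7% of all regions) and 9.38% for the Mx1-Cre set (7.88%), and lost regions 15.3% for 4S-A against FL 3 and KO 3 (7.03%) and 18.8% for 4S-A against FL 3 (13.9%). KO against FL over 6 libraries lost 0% in equal-length lists, with 50% of the region covered and inside gene spans (0.563, 0.369 and 0.214% of all regions), and the Mx1-Cre set gained 39.5% with 50% covered (25.2%). Genes with more and fewer regions numbered 6 and 11 in 4S-A in equal-length lists (11 and 3 as deposited, against FL 3 and KO 3), 6 and 3 in KO of the Mx1-Cre set (13 and 0) and 7 and 14 in KO 3 (13 and 18). The cause of these changes was not tested. Equal-length lists keep fewer peaks and gene spans take in fewer, whereas the 25 kb window takes in more. The 50% setting changes only which libraries count as holding a region.

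With a library left out, lost shares ranged from 1.85 to 3.70% (KO against FL), 4.50 to 16.5% (Mx1-Cre set), 5.74 to 10.7% (4S-A against FL 3 and KO 3) and 12.4 to 16.0% (4S-A against FL 3), where those of all regions ranged from 0.230 to 1.46%, 2.61 to 13.0%, 6.98 to 11.7% and 14.2 to 18.8%. Gained shares ranged from 0 to 8.63%, 24.2 to 33.3%, 13.7 to 18.8% and 17.6 to 23.7% in the same order, where those of all regions ranged from 0.914 to 10.7%, 19.5 to 29.0%, 14.2 to 17.3% and 20.3 to 24.3%. Differences in the share of the list ranged from 0.00113 to 0.0359 points, 0.0139 to 0.0392, 0.00205 to 0.0118 and −0.00195 to 0.00605, the last changing sign without 4S-A 1. List length limits what could be called, since a region absent from a short list may lie below its threshold.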
